A study of Mus musculus with 7 samples.

Results

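CTCF binding was described at 41 imprinted genes outside the Igf2 locus, in 7 mouse ChIP-exo 5.0 libraries. The genes were taken from a list of known imprinted genes, not from values of these libraries, and fall into 15 chromosomal domains. Every peak centred in a gene or within 20 kb of it was used, so that the 41 windows are compared with the windows of all 34614 protein-coding and long noncoding genes of the annotation. The samples were wildtype mouse brain, lung, kidney and liver, and liver in a titration of 3 cell numbers, with 1 library each. The titration libraries are called the 2.7-million-cell, 270-thousand-cell and 27-thousand-cell libraries here. The study's methods estimated liver cell numbers from the wet weight of tissue. Liver cells, where named below, means these libraries, and liver is also 1 of the 4 organs. The study's methods give the mice as 16 week old adult males and the tissue as 100 mg, fixed in 1% formaldehyde, whereas the labels give 0.3%. Every library carries the same CTCF antibody in its labels, although their extraction protocol names IgG, and no library without CTCF antibody was analysed here. With 1 library per group no difference has a replicate check, no p-value is given, and organ, animal and library cannot be told apart. Intervals are 95% and exact, and cover counting error only.

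An imprinted gene is transcribed mainly from the copy inherited from one parent. Imprinted genes lie in clusters, and each cluster is governed by a control region whose DNA methylation is set in one parent's germline. CTCF is a DNA-binding protein of insulators and loop anchors, and at some control regions it binds the unmethylated copy. In ChIP-exo, an exonuclease digests the immunoprecipitated DNA until it meets the crosslinked protein, so that a bound protein leaves a stop on each strand. These libraries hold no information on which parent's copy was bound.

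The deposited peaks are 21 bp wide, lie on 1 strand and hold at least 2 tags, where a tag is 1 mapped stop. The libraries held between 35594 tags (27-thousand-cell library) and 6592538 tags (2.7-million-cell library), and the 4 organs between 527038 and 1635582. A library without a listed peak at a gene may still have had single tags there. In the 4 organs between 76.3% and 91.5% of the peaks had all of their tags at 1 position, against 33.1% in the 2.7-million-cell library. Whether such peaks come from single molecules was not tested. A peak pair, taken here as the mark of a bound site, was a forward peak with a reverse peak 10 to 80 bp downstream. How many pairs arise without a bound protein was not tested. Places with pairs were put in 2 lists. The first, called shared sites, holds places with a pair in at least 2 of the 7 libraries, with 20 in the windows of the imprinted genes and 12141 in the genome. The second, called regions, was added after the data were seen because so few shared sites were left. It holds pairs of the 2.7-million-cell library merged within 200 bp and holding at least 30 tags, with 59 in these windows and 31057 in the genome. Since regions were chosen in liver cells, binding confined to other organs is missed.

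All 41 windows held peaks in brain, kidney, liver and the 2 larger cell libraries, where 94.2% to 99.3% of all gene windows did. In lung 38 held peaks (background 88.3%), and in the 27-thousand-cell library 9 (20.4%), so these counts were near those of all genes. Peak pairs were found at 37 of the 41 genes in the 2.7-million-cell library, where 80.6% of all gene windows held one. Brain had pairs at 20 genes (background 32.7% of gene windows), lung at 10 (18.4%), kidney at 4 (14.9%) and liver at 2 (5.21%). The 4 kidney genes share 2 pairs, 1 at both Magel2 and Mkrn3 and 1 at both Commd1 and Zrsr1. The latter is the Zrsr1 peak described below, nearly all on 1 strand. The 270-thousand-cell library had a pair at 4 imprinted genes (background 16.2%) and the 27-thousand-cell library at 0 (background 0.0144%). The brain share, 48.8% of the genes, was thus above its background, while kidney, at 9.76%, was below it and liver, at 4.88%, close to it. The windows of the imprinted genes had a median of 70.7 kb and those of all genes 52.8 kb, and longer windows can hold more pairs. Over the merged windows brain had 6.09 pairs per Mb at imprinted genes and 5.45 at all genes. Lung had 2.03 against 2.34, kidney 0.58 against 1.96, liver 0.58 against 0.663 and the 2.7-million-cell library 68.4 against 63.6. Levels are given in tags per kb of window and 1000000 library tags. The median level in the windows was 0.496 in brain (0.453 over all genes). Lung had 0.375 (0.464), kidney 0.48 (0.448) and liver 0.38 (0.431). In the 2.7-million-cell library the medians were 0.387 and 0.42.

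Regions were found at 30 of the 41 genes, where 64.2% of all gene windows had one, with a median of 1.85 regions per 100 kb against 1.76 over all genes. Of the 59 regions, 30 lay inside an imprinted gene, and 18 lay in the windows of more than 1 of them, so that neighbouring genes are not separate observations. The 11 genes without a region were Ascl2, Kcnq1ot1, Rtl1, Rian, Mirg, Dio3, Ube3a, Ndn, Igf2r, Mest and Copg2. Among these Ascl2, Kcnq1ot1, Dio3 and Ndn had no pair of any strength in any of the 7 libraries. The other imprinted genes of a wider list, 23 of which were found in the annotation, had pairs at 9 genes in brain, 5 in lung and 4 in kidney, and at 21 in the 2.7-million-cell library.

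At the 59 regions, tags were listed for 40 in brain (67.8%, interval 54.4% to 79.4%), where 58.4% of all regions of the genome had them. Lung had tags at 29 (background 48.5%), kidney at 25 (42.9%), liver at 13 (26.2%) and the 270-thousand-cell library at 27 (48.2%). The 27-thousand-cell library had tags at none of the 59, against 1.85% of all regions. Counted by any listed tag, the regions of the imprinted genes were thus seen in each library about as often as other regions. By summed tags kidney and liver were lower, with 120 and 46 where the genome's rate, defined below, would give 175 and 69.6. Brain had 357 against 341 and lung 312 against 358. Among regions of at least 100 tags, liver had tags at 22.7%, against 39.5% of such regions of the genome. Brain had 72.7% against 77.4%, lung 63.6% against 66.9% and kidney 63.6% against 59.6%. When peaks with all tags at 1 position were left out, tags remained for brain at 31 regions (52.5%, against 43% of all regions) and for lung at 11 (18.6%, against 23.8%). Liver kept tags at 7 (11.9%, against 17.8%) and kidney at 3 (5.08%, against 19%).

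**Figure D1:**
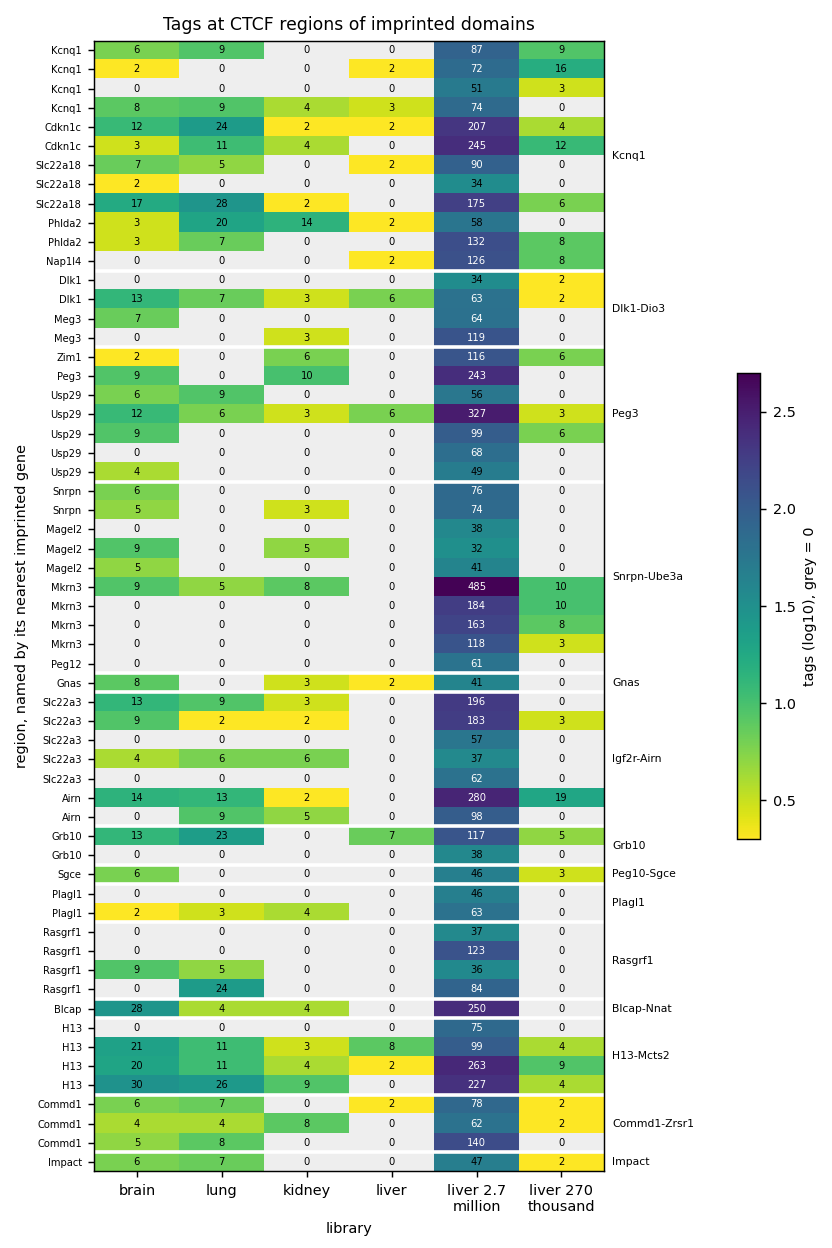
Tags at the 59 regions (rows, named by the nearest imprinted gene and grouped by domain) in 6 libraries (columns); colour is log10 of the tag count, grey marks 0, and the number in each cell is the count. The 2.7-million-cell library ranges from 32 to 485 tags, whereas no organ passes 30 tags at any region.

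The distance between the forward and the reverse stop of a pair was close to that of the genome in the 2 libraries with most pairs. In the 2.7-million-cell library the 236 pairs at imprinted genes had a median distance of 47.5 bp and the 129147 pairs of the genome 48 bp, and in brain 21 pairs had 46 bp against 44 bp. Lung, with 7 pairs, had 34 bp against 43 bp. Kidney, liver and the 270-thousand-cell library had 2 pairs each, with 42.5, 71.5 and 71.5 bp against 44, 43 and 49 bp. The order of the stops in the 2.7-million-cell library was fixed by the choice of regions from its pairs, and is given for scale. Around the centres of the 59 regions, 87.5% of forward tags lay upstream and 87.3% of reverse tags downstream, against 88.3% and 90.2% over all regions. The 270-thousand-cell library, which did not choose the regions, had 87.9% and 97.1%, against 87.6% and 89.7%. Brain had 67.5% and 69.3%, close to 67% and 71.5% over the genome. In lung 94.9% of the forward tags lay upstream but only 53.3% of the reverse tags downstream, where the genome had 67.8% and 72.3%, from 131 upstream and 7 downstream tags on the forward strand and 63 and 72 on the reverse.

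The start sites were examined next, for 12 genes listed as having promoters in regions that are methylated in the maternal germline. The list may not hold every such gene, so that the other 29 genes are only those not listed. The 12 listed are Kcnq1ot1, Peg3, Snrpn, Airn, Mest, Peg10, Plagl1, Nnat, Mcts2, Zrsr1, Impact and Nespas. A region lay within 1 kb of the start of 1 of the 12, Peg10, and of 3 of the other 29 genes, H13, Sgce and Peg12. Over the annotation 7.47% of genes with a listed start had one. Peg10 and Sgce are neighbours read from a common start area, so that both counts come from the same region. The promoter table lists no start for 8 of the 41 genes, Peg10 and Sgce among them, and for these the nearer gene end was used. The median count within 1 kb of the 12 germline starts was 3.5 tags in the 2.7-million-cell library and 0 in brain and lung, and the median over all genes with a listed start was 2. Mest had the most organ tags among the 12, with 15 tags in lung, 5 in brain and 2 in kidney near 1 of its starts, and 14 in the 2.7-million-cell library. At the starts of Snrpn, Airn and Mcts2 no library listed a peak within 1 kb.

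Sequences upstream of start sites, from RefSeq on GRCm38.p6 (the mm10 coordinates), are shown because they hold the pairs nearest to a start, or hold none at a control region. Each line gives the 250 bases before the start, 5′ to 3′ on the strand of the gene, and capitals mark 7-letter parts of the CTCF core motif (AGGGGGC or AGGTGGC or AGATGGC or AGAGGGC, on either strand). At least 1 of these was found in 23.6% of all 32851 promoters of the table, and in 77.6% of the 343 that held the centre of a region of at least 100 tags. The 33 imprinted genes in the table have 43 listed starts. Of these genes, 12 had at least 1 of the motif parts upstream of any start, and 3 had a pair there. These are counts of genes and the 23.6% is a share of promoters, so they cannot be compared. No share of all promoters with a pair is given for the count of 3.
H13, chr2:152669211-152669460, plus strand: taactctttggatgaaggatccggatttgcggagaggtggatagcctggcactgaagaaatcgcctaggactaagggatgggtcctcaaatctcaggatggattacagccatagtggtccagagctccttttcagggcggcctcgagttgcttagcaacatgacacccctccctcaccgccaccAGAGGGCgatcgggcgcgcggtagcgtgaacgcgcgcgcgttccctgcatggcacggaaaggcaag
Gm33663, chr7:143466498-143466747, minus strand: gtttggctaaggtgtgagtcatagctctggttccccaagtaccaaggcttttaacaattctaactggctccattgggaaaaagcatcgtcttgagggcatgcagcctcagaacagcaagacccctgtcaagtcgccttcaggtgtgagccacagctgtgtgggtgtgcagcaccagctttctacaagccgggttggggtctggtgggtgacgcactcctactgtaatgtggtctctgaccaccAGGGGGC
Kcnq1ot1, chr7:143296548-143296797, minus strand: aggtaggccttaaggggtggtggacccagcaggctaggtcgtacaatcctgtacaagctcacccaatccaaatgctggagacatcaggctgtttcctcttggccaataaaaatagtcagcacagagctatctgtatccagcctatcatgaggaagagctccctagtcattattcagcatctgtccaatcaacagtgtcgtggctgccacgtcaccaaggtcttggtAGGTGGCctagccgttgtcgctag
Commd1, chr11:22982285-22982534, minus strand: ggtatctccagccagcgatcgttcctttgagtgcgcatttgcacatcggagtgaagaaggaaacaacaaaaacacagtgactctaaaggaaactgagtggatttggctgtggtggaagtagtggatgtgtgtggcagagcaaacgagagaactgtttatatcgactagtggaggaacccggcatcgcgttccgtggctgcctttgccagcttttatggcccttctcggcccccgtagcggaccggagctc
Peg12, chr7:62464511-62464760, minus strand: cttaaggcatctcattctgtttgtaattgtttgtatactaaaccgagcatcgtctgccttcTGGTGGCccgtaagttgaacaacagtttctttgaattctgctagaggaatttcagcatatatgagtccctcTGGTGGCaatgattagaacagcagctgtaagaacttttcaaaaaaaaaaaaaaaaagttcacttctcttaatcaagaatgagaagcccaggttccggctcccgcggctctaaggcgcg
In the H13 sequence AGAGGGC starts at base 185, counted from the 5′ end, and the 3 pairs of the 2.7-million-cell library were centred at bases 146, 184 and 222. Gm33663 is a noncoding gene between Cdkn1c and Slc22a18 whose start lies at the strongest region of that domain, where AGGGGGC starts at base 244 and pairs were centred at bases 192 and 245. Kcnq1ot1 holds AGGTGGC from base 227, yet its 250 bases had no pair in any library and 4 tags in the 2.7-million-cell library. The Commd1 sequence had pairs at bases 123 and 186, with 26 tags in liver cells and 12 in lung, and none of the 4 motifs. Peg12 also had none of them, with pairs at bases 37, 90 and 144. Its capitals mark TGGTGGC, at bases 62 and 133, letters looked for after the sequence was seen and present in 5.15% of all promoters and in 10.5% of those with a region. A match is a description of the letters and not a bound site.

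The Kcnq1 domain on chromosome 7 had the most regions, 12 over 7 genes. Per 100 kb, H13-Mcts2 had 5.05, Rasgrf1 2.54, Plagl1 2.47 and Commd1-Zrsr1 2.4, and the Kcnq1 domain had 2.28 over its 525.4 kb. Its control region is the promoter of Kcnq1ot1, a long noncoding RNA made from the paternal copy within Kcnq1, a potassium channel gene. The 83437 bp Kcnq1ot1 gene and its flanks had no pair, with a level of 0.127 in the 2.7-million-cell library, where the median gene had 0.42. Regions lay on both sides of it, 4 of the 12 at Kcnq1, with 284 of the 1351 tags of the 2.7-million-cell library, and the others beyond, from Cdkn1c to Nap1l4. Cdkn1c, an inhibitor of cyclin-dependent kinases, had 11.7 regions per 100 kb of window and a level of 3.4 in that library, and Slc22a18, a solute carrier, had 10.7 and 2.86. The strongest of these regions (chr7:143466304-143466655) held 245 tags in the 2.7-million-cell library (interval 215 to 278) and 12 in the 270-thousand-cell library, with 3 brain, 11 lung, 4 kidney and 0 liver tags. The next, 3036 bp from Cdkn1c (chr7:143463943-143464249), held 207 tags in the 2.7-million-cell library, 12 in brain, 24 in lung, and 2 in each of kidney and liver. A region inside Slc22a18 (chr7:143480539-143480845) held 175 tags in the 2.7-million-cell library, and 17 brain, 28 lung, 2 kidney and 0 liver tags. Lung had the most organ tags at all 3, but in peaks with several positions brain kept 9 and lung 2 at the second, and brain kept 17 and lung 2 at the third. At the strongest region brain kept 3 and lung 5.

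Phlda2, which restrains placental growth, had 2 neighbouring regions, at -3523 and -4393 bp from its start. The nearer held 58 tags in the 2.7-million-cell library but 20 in lung and 14 in kidney, against 3 in brain and 2 in liver. In peaks with several positions it kept 16 tags in lung, 2 in liver and 0 in brain and kidney. The farther held 132 tags in the 2.7-million-cell library and 7 in lung. At Nap1l4, a histone chaperone gene, a region inside the gene (chr7:143544453-143544745) held 126 tags in the 2.7-million-cell library and 8 in the 270-thousand-cell library, with 2 tags in liver and 0 in brain, lung and kidney. In Kcnq1 itself 3 regions lay within the gene and 1 lay 11975 bp away from it, with 51 to 87 tags in the 2.7-million-cell library. Ascl2, a transcription factor of placental precursors, had the lowest level of the 41 genes in that library, 0.0786. Over the whole domain lung had 113 tags (interval 93.1 to 136), where the domain's share at the genome's rate was 72.7, and brain had 63 against 69.2. In peaks with several positions lung kept 27 tags, where the rate for such peaks would give 29.2, and brain kept 45 against 46.1, so that lung was above the rate only with 1-position peaks included. The rate is that of organ tags to tags of the 2.7-million-cell library over all 31057 regions. This comparison has no test. The regions were chosen for their tags in the 2.7-million-cell library, here and in the genome alike, so that it describes these libraries only.

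**Figure D2:**
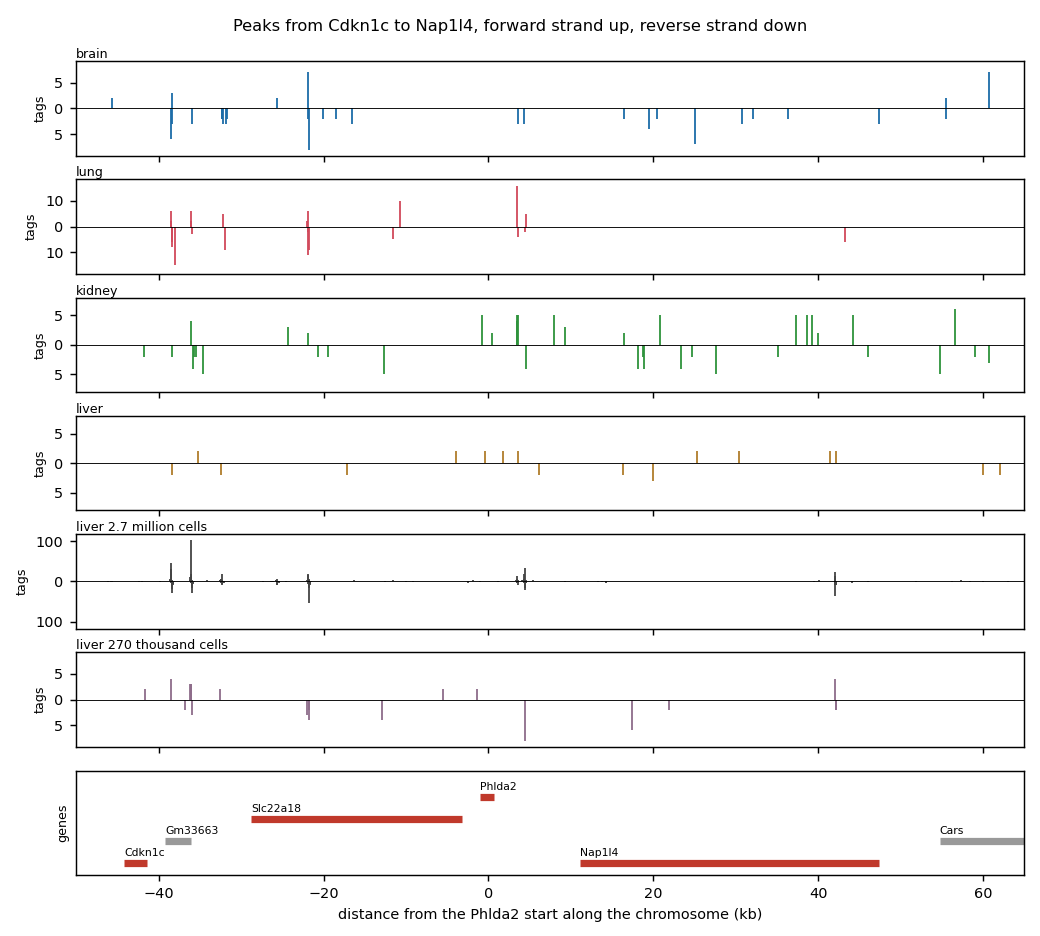
Listed peaks from Cdkn1c to Nap1l4 in 6 libraries, as tags (y axis, forward strand up and reverse strand down, with its own scale in each panel) by distance from the Phlda2 start in kb (x axis); imprinted genes are red and other genes grey. The stacked forward and reverse stops between Cdkn1c and Slc22a18 hold 245 and 207 tags in the 2.7-million-cell library, and brain and lung peaks lie at the same places.

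In the Snrpn-Ube3a domain, binding in liver cells was concentrated around Mkrn3 and Magel2. This domain is the mouse counterpart of the human Prader-Willi and Angelman interval, where Snrpn, Ndn, Magel2, Mkrn3 and Peg12 are read from the paternal copy and Ube3a, a ubiquitin ligase, from the maternal copy in neurons. Mkrn3, a zinc finger gene linked to puberty timing, had a level of 4.01 in the 2.7-million-cell library, the highest of the 41 genes, and 1.6 in the 270-thousand-cell library. Its level in brain was 0.406, in lung 0.577, in kidney 0.244 and in liver 0.535. Its strongest region lay between Magel2 and Mkrn3 (chr7:62400011-62400530) and held 485 tags from 9 pairs in the 2.7-million-cell library, the most of the 59. It held 10 in the 270-thousand-cell library and 9 brain, 5 lung, 8 kidney and 0 liver tags, and was a shared site in brain and kidney.

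On the other side of Mkrn3, 3 regions lay 8378, 13304 and 16392 bp from the gene (chr7:62428357-62428640, chr7:62433281-62433571 and chr7:62436390-62436654). They held 184, 163 and 118 tags in the 2.7-million-cell library and 10, 8 and 3 in the 270-thousand-cell library. None of the 4 organs listed a tag in any of them, where the genome's rate would have given 26.1, 23.1 and 16.7 tags over the 4 organs. Of the 22 regions of at least 100 tags at imprinted genes, 4 had no organ tags, these and 1 in Rasgrf1, where 9.47% of the 12937 such regions of the genome had none. For 3 of the 22 the 270-thousand-cell library did have tags, against 3.9% of the genome. The result depends on the region's edge. When tags were counted to 200 bp beyond the outer pairs, lung had 6 tags at the first, liver 2 at the second and kidney 3 at the Rasgrf1 region, which left 1 region without organ tags, against 7.75% of the genome. The organs were shallower at regions than these cells, with 36975 to 190075 tags against 3531941 over all regions.

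The other genes of this domain differed in how many regions they had. Snrpn, a splicing factor gene with a long upstream part, had 2 regions of 76 and 74 tags over 467683 bp, with 6 and 5 tags in brain. Magel2, whose window also takes in the 485-tag region, had a level of 2.33 in the 2.7-million-cell library and 3 weaker regions with 32 to 41 tags. The Peg12 region before its start held 61 tags in the 2.7-million-cell library and 0 in every organ. Ube3a had 6 pairs in that library, none of which reached a region of 30 tags, and Ndn had no pair. Lung held 5 tags (interval 1.62 to 11.7) over the 10 regions of the domain, where the genome's rate would give 68.5, and liver 0 where it would give 13.3. Brain held 34 (interval 23.5 to 47.5) where it would give 65.2, and kidney 16 against 33.4. All 4 organs had fewer tags than the rate gives here.

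**Figure D3:**
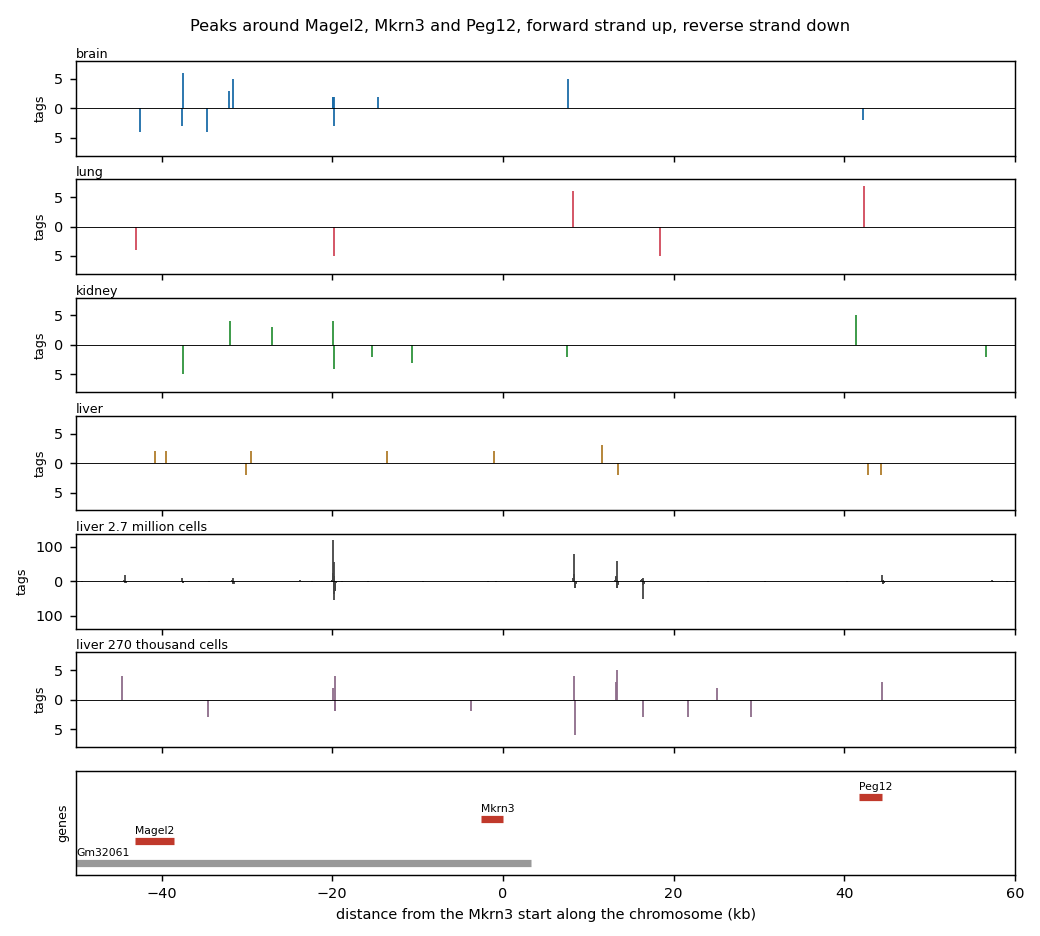
Listed peaks around Magel2, Mkrn3 and Peg12 in 6 libraries, as tags (y axis, forward strand up and reverse strand down, with its own scale in each panel) by distance from the Mkrn3 start in kb (x axis); imprinted genes are red and other genes grey. The 2.7-million-cell library has 3 separate groups of stops on the right of Mkrn3, with 184, 163 and 118 tags, and the organ panels have isolated peaks of few tags.

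The H13-Mcts2 domain on chromosome 2 stood farthest above the genome's rate for brain when counted in tags. As a ratio to the rate brain was at 2.09 here, below Gnas (3.81), Peg10-Sgce (2.54), Impact (2.49) and Blcap-Nnat (2.19), which had fewer brain tags. In peaks with several positions brain was at 2.26 here, 6.28 in Gnas, 3.79 in Peg10-Sgce, 2.91 in Blcap-Nnat and 0 in Impact. Mcts2 is a retrogene within an intron of H13, the signal peptide peptidase gene, and is read from the paternal copy. Brain had 6 pairs in the domain, the most of the 15 domains, and a level of 3.26 at Mcts2, where the median gene had 0.453. The start of H13 (chr2:152669256-152669531), whose sequence is given above, held 21 brain, 11 lung, 3 kidney and 8 liver tags, with 99 in the 2.7-million-cell library and 4 in the 270-thousand-cell library. It was the only region of the domain that was strongest, relative to depth, in the liver organ. Past Mcts2, a region at 6283 bp (chr2:152693262-152693618) held 20 brain, 11 lung, 4 kidney and 2 liver tags and 263 in the 2.7-million-cell library. The next, at 9786 bp (chr2:152696700-152697130) held 30 brain, 26 lung, 9 kidney and 0 liver tags and 227 in the 2.7-million-cell library. In peaks with several positions, these regions kept 17 and 26 tags in brain and 11 and 26 in lung. At the H13 start brain kept 8 such tags and liver 6, and lung and kidney kept 0. The H13 region before the gene, by contrast, had 75 tags in the 2.7-million-cell library and 0 in every other library. Brain counted 71 tags (interval 55.5 to 89.6) over the domain, where the genome's rate would give 34, and lung 48 against 35.7. The Mcts2 start itself, a germline control region, lay between bound regions and had no listed peak.

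**Figure D4:**
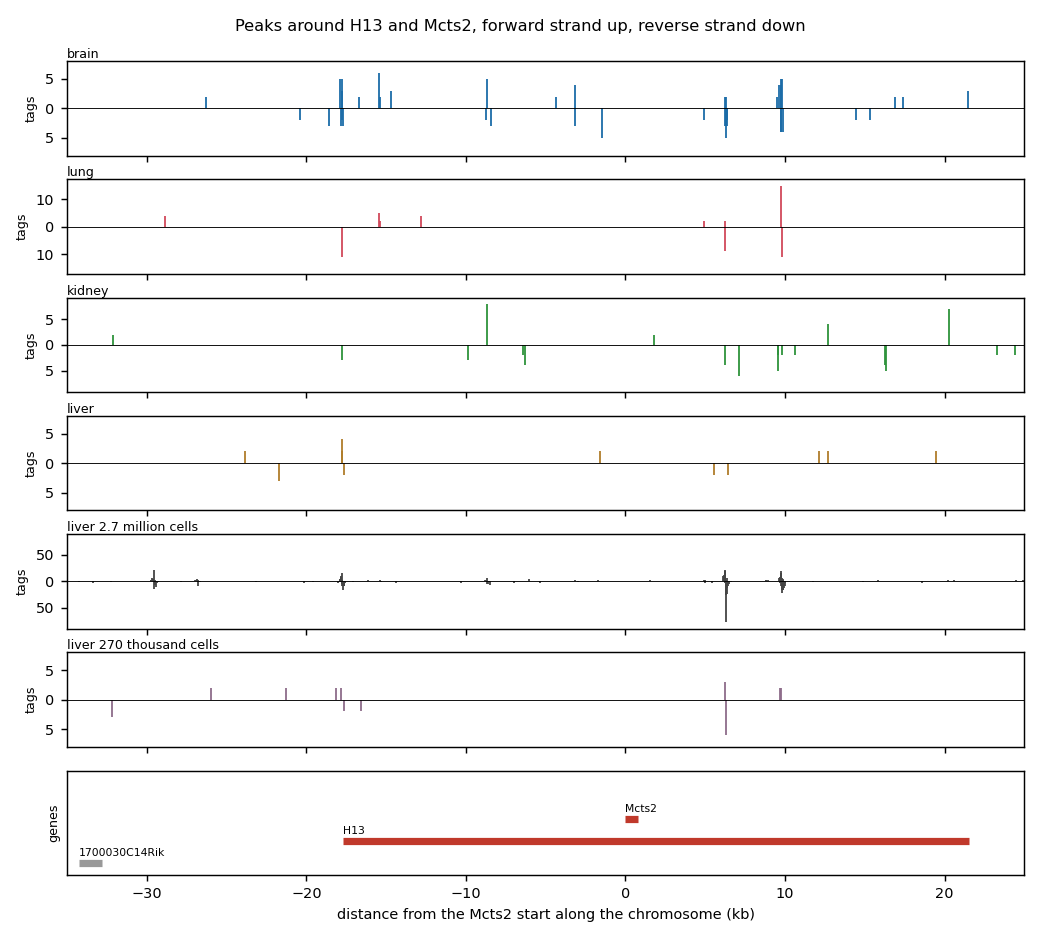
Listed peaks around H13 and Mcts2 in 6 libraries, as tags (y axis, forward strand up and reverse strand down, with its own scale in each panel) by distance from the Mcts2 start in kb (x axis); imprinted genes are red and other genes grey. Brain, lung and both cell libraries have stops around 6283 and 9786 bp, and none of the 6 libraries has a peak within 1 kb of 0.

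Nnat and Zrsr1 also lie within host genes. Nnat, a neuronal membrane protein gene, is found within Blcap, and the domain's only region lay 5347 bp before the Blcap start (chr2:157571508-157571857). It held 28 brain, 4 lung, 4 kidney and 0 liver tags and 250 in the 2.7-million-cell library, and 25 of the brain tags were in peaks with several positions. Zrsr1, a splicing factor retrogene, lies within Commd1. Its window had the highest level of the 41 genes in each organ (brain 3.35, lung 5.97, kidney 2.73 and liver 4.95), which came in large part from 1 reverse-strand peak at chr11:22973216, inside Zrsr1. That peak held 77 brain, 80 lung, 127 kidney and 68 liver tags, spread over positions with a standard deviation of 0.72 to 1 bp. It held 10 tags in the 2.7-million-cell library and 0 in the 270-thousand-cell library. Within 100 bp the other strand had 0 tags in brain, lung and liver and 3 in kidney. It was thus not a stop on each strand in the organs, although it enters the list of shared sites. In the genome 12 positions had at least 50 tags on 1 strand in all 4 organs, and this was the only one at an imprinted gene. Without that peak the levels of Zrsr1 were 1.48, 3.21, 0.748 and 1.08. The cause of the peak was not tested. Commd1 also had 3 regions in its window with 62 to 140 tags in the 2.7-million-cell library, and 4 to 6 tags each in brain.

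In the Peg3 domain the control region lies at the common start of Peg3, a zinc finger gene of growth and maternal care, and Usp29, which is read in the other direction. The longest of the 59 regions lay inside Peg3, centred 2912 bp after its start (chr7:6727175-6727906), with 11 pairs over 732 bp, where the median region was 291 bp. It held 243 tags in the 2.7-million-cell library and 0 in the 270-thousand-cell library, with 9 in brain, 10 in kidney and 0 in lung and liver. Only 2 of the brain tags and none of the kidney tags were in peaks with several positions. The region with most tags of the domain lay in Usp29 (chr7:6937159-6937529), with 327 tags in the 2.7-million-cell library and 12 brain, 6 lung, 3 kidney and 6 liver tags. In peaks with several positions that region kept 2 liver tags and 0 in brain, lung and kidney. Usp29 had 4 other regions in or near it with 49 to 99 tags. The Zim1 window had 1 region, of 116 tags in the 2.7-million-cell library and 2 in brain. The domain had 15 lung tags (interval 8.4 to 24.7), where the genome's rate would give 51.6, and no organ had a pair in it.

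**Figure D5:**
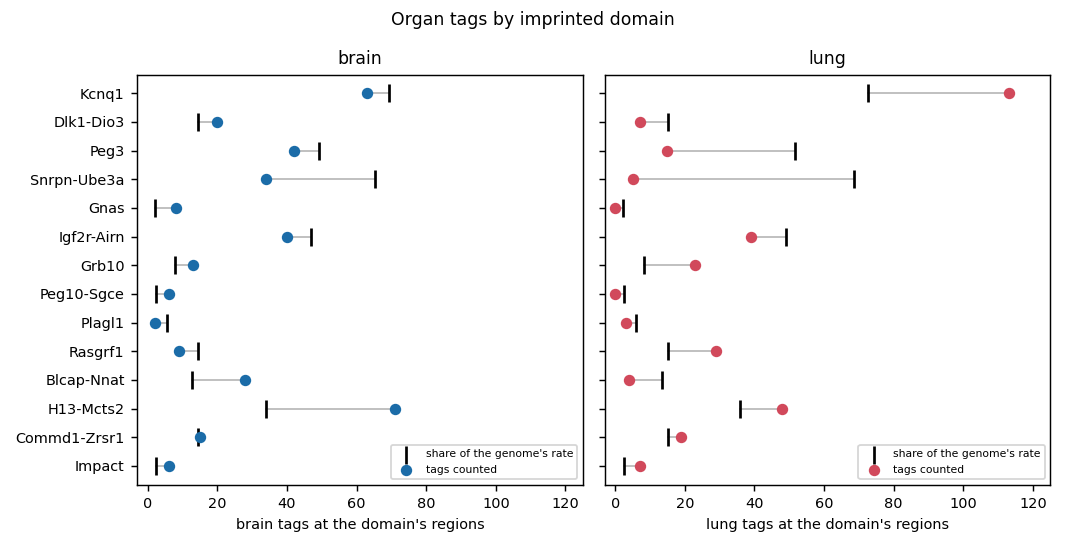
Brain tags (left) and lung tags (right) summed over the regions of each imprinted domain (circles), with the tags that the genome's rate would give (black bars); domains with no region are left out. Counted in tags, brain stands farthest above the bar in H13-Mcts2, with 71 against 34, and lung farthest below it in Snrpn-Ube3a, with 5 against 68.5. As a ratio to the bar, brain is higher still in Gnas (8 against 2.1), Peg10-Sgce (6 against 2.36), Impact (6 against 2.41) and Blcap-Nnat (28 against 12.8). Lung is at 0 in Gnas and Peg10-Sgce.

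At Igf2r-Airn, Airn, a noncoding RNA that silences Igf2r on the paternal copy, held the strongest region (chr17:12810469-12810946), with 280 tags in the 2.7-million-cell library and 19 in the 270-thousand-cell library, and 14 brain, 13 lung, 2 kidney and 0 liver tags. Igf2r, a receptor that clears the growth factor IGF2, had 2 pairs in the 2.7-million-cell library and no region. Slc22a3, an organic cation transporter, had 5 regions, of 196, 183, 62, 57 and 37 tags in the 2.7-million-cell library, and the first held 13 tags in brain and 9 in lung. Liver organ listed no tags over the 7 regions of the domain, where the genome's rate would give 9.56.

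In the Dlk1-Dio3 domain binding lay around Meg3 and upstream of Dlk1. Meg3 is a maternally expressed noncoding RNA, and 2 regions lay 1190 and 2035 bp after its start. They held 64 and 119 tags in the 2.7-million-cell library and 0 in the 270-thousand-cell library, and the first had 7 tags in brain and the second 3 in kidney, all in peaks of 1 position. A region 14595 bp before Dlk1, a Notch-like regulator of growth (chr12:109437790-109437989), had tags in 6 libraries, with 13 brain, 7 lung, 3 kidney and 6 liver tags, 63 in the 2.7-million-cell library and 2 in the 270-thousand-cell library. For the liver organ its ratio to the other organs was the highest among the 18 sites with at least 10 organ tags, 2.99 (interval 0.995 to 7.55). Because a count of 0 is set to 3, a site without liver tags near Cdkn1c had a liver ratio of 2.86, so this rank says little. Rtl1, Rian and Mirg had 3, 4 and 1 pairs in the 2.7-million-cell library, all below the 30 tags of a region, and Dio3, the deiodinase that inactivates thyroid hormone, had none.

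The domains with few genes were more uneven. Grb10, an adaptor that dampens insulin signalling, held a region of 117 tags in the 2.7-million-cell library (chr11:11973414-11973751), with 13 brain, 23 lung, 0 kidney and 7 liver tags. All of its lung tags and none of its liver tags were in peaks of 1 position. Rasgrf1, a Ras activator, had 4 regions. That of 123 tags in the 2.7-million-cell library had no organ tags within its bounds, and another 939 bp past the gene (chr9:90027749-90028034) had 84 tags in the 2.7-million-cell library, 24 in lung and 0 in brain, kidney and liver, with 8 of the lung tags in peaks with several positions. Plagl1, a zinc finger regulator of growth, had a region of 63 tags 3416 bp before its start, with 2 to 4 tags in brain, lung and kidney. At Gnas, which encodes the stimulatory G protein alpha subunit, 1 region held 41 tags in the 2.7-million-cell library and 8 in brain, and its centre lay 16874 bp from the antisense gene Nespas. The region at the Peg10 and Sgce starts held 46 tags in the 2.7-million-cell library and 6 in brain, all 6 in peaks with several positions. Impact had 1 region of 47 tags 6320 bp away, with 6 tags in brain and 7 in lung, all in peaks of 1 position. Mest and Copg2 had no region over 203.3 kb, and the 1 pair in the 2.7-million-cell library lay in both windows.

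At the 20 shared sites, brain listed tags at 19 (95%, against 90% of all shared sites) and lung at 17 (85%, against 73.7%). Kidney listed tags at 13 (65%, against 64.8%) and liver at 7 (35%, against 42.5%). All 4 organs had tags at 4 sites (20%, interval 5.73% to 43.7%), against 23.9% of all shared sites, namely those at Dlk1, the H13 start, Phlda2 and the Zrsr1 peak. For 18 sites with at least 10 organ tags, the organ's share of tags was divided by the share of the other 3 organs. In brain 1 site was at least 4-fold higher, that before Blcap, with a ratio of 4.28 (interval 1.82 to 11.2), against 12.6% of all sites. In lung 1 site was at least 4-fold higher, the Commd1 start, with a ratio of 7.08 (interval 1.91 to 39.1), against 10% of all sites. None was so for kidney or liver, where 6.3% and 4.8% of all sites were. The second ratios in order were 2.93 in brain, at a site in Rasgrf1, and 2.66 in lung, at the site before Kcnq1. In kidney the highest were 3.07 between Magel2 and Mkrn3 (interval 1.09 to 8.16) and 2.66 at the Zrsr1 peak. The Phlda2 site was the lowest in brain, with a ratio of 0.136 (interval 0.0268 to 0.43), from 3 brain, 20 lung, 14 kidney and 2 liver tags. All of its brain and kidney tags were in peaks of 1 position. These counts moved with the processing. With shares of all listed tags, 7 of the 18 sites were past the fold in lung, against 31.7% of all sites. Without 1-position peaks, 3 of 8 sites were past it in liver, against 5.16%, and 2 of 8 in brain, against 23.9%.

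By expressed copy, pairs in the 2.7-million-cell library were found at 14 of 15 genes read mainly from the maternal copy and at 19 of 22 read from the paternal copy. They were found at 11 of the 12 genes listed with a germline control region at the promoter. In brain the counts were 8 of 15, 9 of 22 and 5 of 12, and the median levels in brain were 0.546, 0.489 and 0.583. Over all genes, 80.6% of windows held a pair in the 2.7-million-cell library and 32.7% in brain, where the median level was 0.453. The remaining 4 genes, Nap1l4, Gnas, Grb10 and Commd1, were in neither parental list. The lists share windows, and the difference between them was not tested.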

How the data were processed

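CTCF ChIP-exo 5.0 was measured in 7 libraries, with 1 library for each of 7 groups. The authors deposited peak lists in which each peak has a count of tags, not normalized, and the standard deviation of tag positions. The submitters' processing notes name BWA 0.7.9a, bcl2fastq 2.16 and mm10. Peaks were not called again.

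Tags were summed from these counts with Python 3.11.15, numpy 2.4.6, pandas 2.3.3 and scipy 1.17.1. The mitochondrion, unplaced sequence and 13 crowded 10 kb bins (20 or more peaks in every one of the 6 larger libraries) were left out, which removed 5.79% to 36.9% of the tags. None of the bins lay in the windows of the imprinted genes. Shared sites had pair centres merged within 50 bp and windows of 200 bp. Organ ratios used sites with at least 10 organ tags, with a count of 0 set to 3. Gene positions came from RefSeq on GRCm38.p6, where Nespas was found as a synonym of Gnasas1. All 41 genes were described, and sites were named by domain, by total organ tags, by organ ratio and by distance to germline starts. The genes and lists were chosen with earlier results of these data known. Pairing and site calling were tested on simulated data. The regions and their alternatives were added after the data were seen.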

Additional observations from a re-analysis of the deposited data

How the results depend on the processing

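Of 114 alternative values, 59 stayed within 1.5 times the main value, 54 did not, and 1 turned its direction. Relative to the genome's rate, lung tags over the Kcnq1 regions fell from 1.55 to 0.925 times without peaks of 1 position. Direction was checked only for some chosen ratios of domain tags to that rate, and ratios outside these turned too. For example, Grb10 in lung fell from 2.76 to 0. Impact fell from 2.49 to 0 in brain and from 2.77 to 0 in lung, while Plagl1 in lung rose from 0.511 to 1.26. With a flank of 5 kb, pairs were found at 12 genes for brain, 4 for lung, 2 for kidney, and 1 each for liver and the 270-thousand-cell library, and within the genes alone at 10, 3, 2, 1 and 1, with 22 in the 2.7-million-cell library. Peaks of at least 5 tags left pairs at 4, 4, 0, 0 and 0 genes, and lowered the median level to 0.152 in brain, 0.114 in kidney, 0 in liver, 0.186 in the 2.7-million-cell library and 0.0784 in the 270-thousand-cell library. Without peaks of 1 position, pairs were left at 13 genes in brain, 4 in lung, and 2 each in kidney and liver, and the median level was 0 in lung and kidney, 0.233 in liver and 0.0762 in the 270-thousand-cell library. Pairs 20 to 60 bp apart gave 0 genes in liver and 2 in the 270-thousand-cell library.

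A pair in at least 3 libraries left 6 sites, and leaving out peaks of 1 position left 12. Sites with tags in all 4 organs made up 5% with at least 5 tags and 8.33% without peaks of 1 position. With shares of all listed tags, 2 sites were higher in brain and 7 in lung. Without peaks of 1 position there were 2 in brain, 0 in lung and 3 in liver, an 8-fold threshold left 0 in brain and lung, and a 100 bp window gave 1 in liver. Regions of at least 100 tags numbered 22. Without peaks of 1 position lung had tags at 18.6% of regions, kidney at 5.08% and liver at 11.9%, and tags of at least 5 were at 15.3% in kidney, 6.78% in liver and 23.7% in the 270-thousand-cell library. Counting to 200 bp beyond left 1 region without organ tags. No paired analysis was possible because the result comes from no test and each group has 1 library. The cause of these changes was not tested. The limits are the single library per group, the low organ depth and the lowest listed count of 2 tags.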
